A study of Homo sapiens with 3 samples.

Results

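The genes described here are 44 DNA damage checkpoint and repair genes, chosen by their known roles in repair. A probe named for the gene was found for 41 of them, and 35 of the 41 were above background on at least 1 array, among 10441 such genes of 20043 in the whole series. The cells were HCC-LM3, an established line from human hepatocellular carcinoma (HCC), kept for 48 h in cyclopamine at 20 μM, in GANT61 at 20 μM or in the vehicle DMSO. Cyclopamine is an antagonist of SMO, the membrane protein that relays the Hedgehog signal, and GANT61 inhibits the Gli transcription factors at the end of that pathway. Each condition was read on 1 Illumina HT-12 v4 array of whole-genome probes, so 3 arrays carry all the data and each treated array is compared with the same DMSO array. With 1 array per condition no test between conditions is possible, and every value below describes these arrays. In a sample of bulk RNA, fewer cells of one kind and less RNA per cell cannot be told apart.

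Cells meet DNA damage with several repair systems and with checkpoint kinases that hold the cell cycle while repair proceeds. The Fanconi proteins open the repair of DNA crosslinks, homologous recombination copies a broken stretch from the sister chromatid, and end joining seals broken ends directly. Mismatch, nucleotide excision and base excision repair remove wrong, bulky or chemically altered bases. Many recombination genes are most active in cells that replicate their DNA.

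The values are signal intensities, and the background limit was set at 1.5 times the commonest intensity, or 63.75 on each of the 3 arrays. Differences are log2 intensities of one array minus another, for the probe of each gene with the highest mean, and a gene was counted as lower or higher where it differed at least 2-fold, which is a log2 difference of 1. The only error at hand is the SD between probes of one gene, which runs by brightness from 0.29 to 0.45 for cyclopamine minus DMSO, from 0.36 to 0.49 for GANT61 minus DMSO and from 0.18 to 0.24 for GANT61 minus cyclopamine. It covers probes and not cultures. The median of all genes lay near 0 in these comparisons, at 0.033, 0.018 and 0.0096, but the 9 reference genes had medians of -0.54 for cyclopamine, with 8 of 9 below 0, and of -0.73 for GANT61, with 6 of 9 below 0. Of the hepatocyte markers, 1 of 8 was above background: ALB read 69.6, 70.4 and 80.0 (here and below in the order DMSO, cyclopamine, GANT61), while AFP, TTR and APOA1 were not above background on any array, so the labelled liver origin is not shown by these genes. Of the epithelial markers, 3 of 4 were above background, with summed intensities of 2059, 953 and 966. The sum follows KRT8, at 1423, 335 and 286, while EPCAM read 401, 387 and 403 and KRT18 183, 181 and 239. Of the other lists, 2 of 3 biliary markers were above background, summed 629, 597 and 538, and 2 of 5 for fibroblasts, summed 412, 331 and 247. For endothelium it was 0 of 4, summed 164, 171 and 165, and for immune cells 1 of 4, summed 374, 660 and 1171, of which CD68, a lysosomal protein, was above background and PTPRC was not. The part of the shifts in these lists in the results below was not tested.

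With cyclopamine, 4 of the 35 repair genes above background were at least 2-fold lower than with DMSO. They were XRCC3, RAD54L, UNG and BARD1, or 11.4% of the 35, where 6.31% of all genes above background were lower. ATM and FANCC passed 2-fold upward in the measured intensities, or 5.71% against 4.70% of all genes. FANCC was below the limit with DMSO and entered through the treated arrays. Of the 33 repair genes above the limit on all 3 arrays, 1, ATM, was higher, where 5.15% of all genes above it on all 3 arrays were. With GANT61, XRCC3 and APEX1 were at least 2-fold lower, or 5.71% against 9.64% of all genes, and none of the 35 was higher, against 8.16% of all genes. Between the treated arrays, FANCB passed 2-fold, with GANT61 above cyclopamine, or 2.86% against 2.31% of all genes, and none was lower, against 3.40%. These counts past 2-fold are of at most 4 genes of 35, too few to tell the share of the set from that of all genes. None is read as a result about the repair genes as a set.

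The median of the 35 genes lay below that of all genes with both compounds. With cyclopamine their median log2 difference was -0.36, with quartiles of -0.65 and 0.14 and 21 of 35 below 0, and the median of all genes was 0.033. With GANT61 their median was -0.19, with 22 of 35 below 0, beside a median of 0.018 for all genes. Of all genes, 47.5% were below 0 with cyclopamine and 49.1% with GANT61. Both medians of the 35 genes share the DMSO array. Subtracting the median difference of the reference genes, taken in each comparison by itself, turned these medians to 0.18 and 0.54. It moved the median of all genes to 0.57 and 0.75. The sign of the repair genes' medians thus depends on this subtraction, while their distance from all genes is the same by construction. FANCC and LIG4 entered the 35 only through a treated array that was above the limit.

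**Figure D1:**
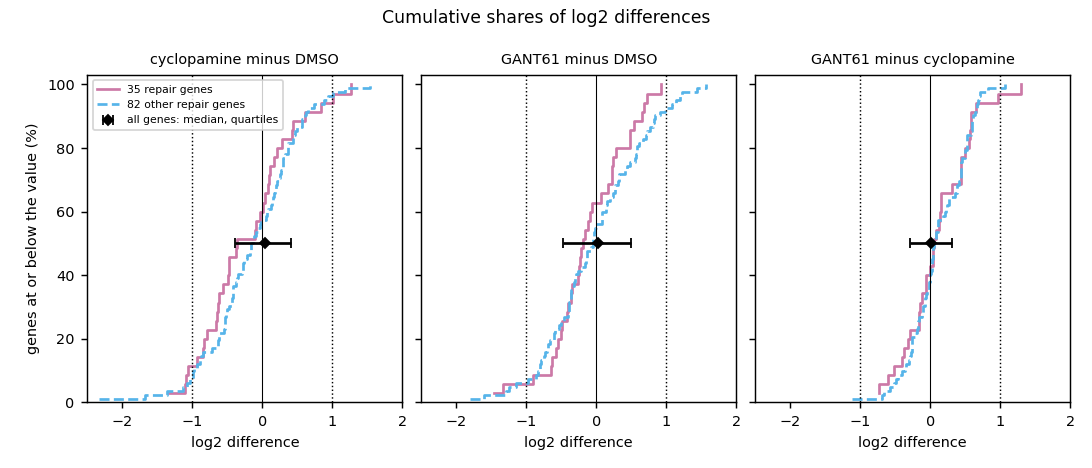
Cumulative shares of log2 differences for the 35 repair genes, 82 further repair genes and, as a diamond with quartiles, all genes above background, in the 3 comparisons; dotted lines mark 2-fold. The 35 genes have medians of -0.36, -0.19 and 0.053, and the median of all genes is near 0 in each panel.

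The promoters of 6 of the genes that differed 2-fold from DMSO are shown because these genes carry the counts above, and FANCC, which passed only through a dim DMSO value, is left out. Each line gives 250 bases before the transcription start and the first 20 bases of the transcript, 5′ to 3′ on the strand of the gene, from RefSeq on GRCh38.p14. Capitals mark the letters CCAAT or, in ATM, also TTTGAA, read on either strand. CCAAT is the CCAAT box and TTTGAA is a core of the cell cycle homology region (CHR) found in many genes of late cell cycle. The form TTTAAA, which the study of these arrays reports for the CHR of KIF20A, was not searched.
XRCC3, chr14:103715432-103715701, minus strand: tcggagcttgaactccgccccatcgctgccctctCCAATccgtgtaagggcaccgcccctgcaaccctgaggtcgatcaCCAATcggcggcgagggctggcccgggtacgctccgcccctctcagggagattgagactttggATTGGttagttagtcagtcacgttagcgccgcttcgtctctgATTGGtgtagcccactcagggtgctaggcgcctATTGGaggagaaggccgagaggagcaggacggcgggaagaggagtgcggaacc
RAD54L, chr1:46247438-46247707, plus strand: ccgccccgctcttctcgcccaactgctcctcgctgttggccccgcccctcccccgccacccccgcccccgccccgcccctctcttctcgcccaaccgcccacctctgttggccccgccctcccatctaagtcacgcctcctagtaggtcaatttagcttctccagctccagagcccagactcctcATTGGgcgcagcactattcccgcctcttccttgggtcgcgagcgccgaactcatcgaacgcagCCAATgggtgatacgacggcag
UNG, chr12:109097347-109097616, plus strand: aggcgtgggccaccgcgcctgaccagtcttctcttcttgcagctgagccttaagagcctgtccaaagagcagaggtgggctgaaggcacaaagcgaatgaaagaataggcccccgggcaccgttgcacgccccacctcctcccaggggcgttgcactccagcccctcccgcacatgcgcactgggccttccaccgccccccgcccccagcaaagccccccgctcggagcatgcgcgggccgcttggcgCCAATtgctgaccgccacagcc
APEX1, chr14:20454976-20455245, plus strand: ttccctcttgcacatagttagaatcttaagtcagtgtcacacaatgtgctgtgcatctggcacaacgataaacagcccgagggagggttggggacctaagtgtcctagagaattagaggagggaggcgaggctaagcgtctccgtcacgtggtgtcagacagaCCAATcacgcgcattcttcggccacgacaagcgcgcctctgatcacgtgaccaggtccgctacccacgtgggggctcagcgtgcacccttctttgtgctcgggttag
BARD1, chr2:214809664-214809933, minus strand: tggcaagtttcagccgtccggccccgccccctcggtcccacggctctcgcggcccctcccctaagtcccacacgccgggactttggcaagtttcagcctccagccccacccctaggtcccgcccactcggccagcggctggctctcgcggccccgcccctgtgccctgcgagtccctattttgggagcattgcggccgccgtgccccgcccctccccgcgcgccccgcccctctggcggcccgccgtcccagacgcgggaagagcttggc
ATM, chr11:108222817-108223086, plus strand: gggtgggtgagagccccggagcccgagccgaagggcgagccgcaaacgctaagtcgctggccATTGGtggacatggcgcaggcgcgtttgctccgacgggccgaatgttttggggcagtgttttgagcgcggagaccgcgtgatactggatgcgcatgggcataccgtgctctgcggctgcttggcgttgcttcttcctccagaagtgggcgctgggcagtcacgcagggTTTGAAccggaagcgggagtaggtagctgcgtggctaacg
XRCC3 holds 5 CCAAT boxes within its window of 300 bases, and at least 5 stand in 0.403% of all 27305 promoters. RAD54L holds 2, with one reaching over the start, and UNG holds 1, which also reaches over the start. APEX1 and ATM hold 1 each, ATM adds 1 CHR core, and no motif of those searched was found in BARD1. Of the 30 repair genes above background with a promoter in the table, 16 had CCAAT (53.3%, against 37.4% of genes above background and 35.7% of all promoters). E2F sites (TTTCGCGC or TTTGGCGC) stood in 3 (10%, against 2.26% and 1.18%), which are FANCC, XRCC6 and EXO1. CHR cores stood in 2 (6.67%, against 9.41% and 15.4%), and the Gli motif GACCACCCA in 0 of 30, against 0.2% and 0.249%. No matches overlap in the promoters shown, and a match is a description and not a binding site. Median GC content was 64.3% in these 30 promoters, near the 65.3% of genes above background.

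**Figure D2:**
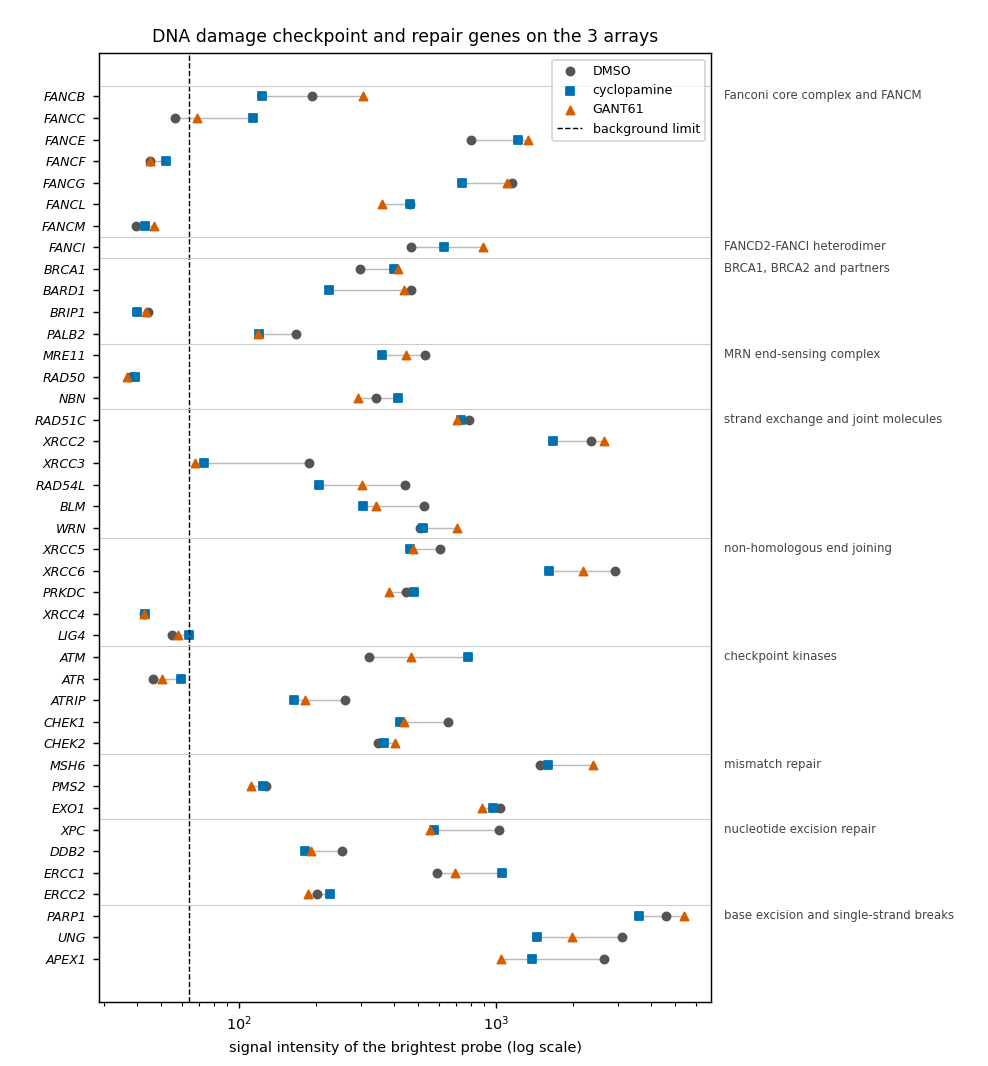
Signal intensity (log scale) of the brightest probe of the 41 repair genes with a probe, grouped by role, on the DMSO, cyclopamine and GANT61 arrays; the dashed line is the background limit of 63.75. XRCC3 sits at 187 with DMSO and near the limit with both compounds, and 6 genes stay below the limit on all arrays.

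Of the Fanconi core complex, the ligase assembly that marks FANCD2 and FANCI, 5 of 8 genes were above background and they did not move together. FANCC, a subunit of the part that recognizes the substrate, read 56.5 with DMSO, 114 with cyclopamine and 68.5 with GANT61. The DMSO value is not above background, so FANCC was at least 1.79-fold higher with cyclopamine. FANCB, a partner of the ligase subunit, read 193, 123 and 304 on the DMSO, cyclopamine and GANT61 arrays. It was thus lowest with cyclopamine and highest with GANT61, at log2 differences of -0.65 and 0.66. The second probe of FANCB read 78.7, 115 and 153, which places both treated arrays above DMSO.

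FANCE, which binds FANCD2, read 803.5, 1221 and 1334, with log2 differences of 0.60 and 0.73. FANCG, a scaffold of the core complex, read 1152, 740.2 and 1104, so it was lower with cyclopamine alone, by 0.64 on the log2 scale, and near DMSO with GANT61 at -0.06. FANCL, the ligase itself, read 463, 465 and 360, at 0.01 and -0.36. FANCF and FANCM, the translocase that brings the complex to DNA, were not above background on any array, and FANCA was not analysed here. FANCI, which forms a clamp on DNA with FANCD2, read 468, 628.5 and 888. It was highest with GANT61, at a log2 difference of 0.92 that falls short of 2-fold, and FANCD2 was not analysed here.

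BRCA1, BARD1 and PALB2 carry recombination forward from the broken end, and they went different ways. BARD1, the partner of BRCA1 in its ubiquitin ligase, read 467 with DMSO, 224 with cyclopamine and 437 with GANT61. It was 2.08-fold lower with cyclopamine and within 0.09 of DMSO on the log2 scale with GANT61. BRCA1 itself read 296, 402 and 415 on its brightest probe, and 244, 352 and 329.6 on the other. Both probes of BRCA1 were higher with both compounds, by 0.44 and 0.53 with cyclopamine and by 0.49 and 0.44 with GANT61, which is about the SD between probes. PALB2, the bridge between BRCA1 and BRCA2, read 167, 119 and 119, a log2 difference of -0.48 and -0.49. BRIP1, a helicase that binds BRCA1, was not above background, and BRCA2 was not analysed here.

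The end-sensing complex of MRE11, RAD50 and NBN showed no 2-fold difference on its brightest probes. MRE11, the nuclease, read 533, 361 and 446 there, while its other probes read 127, 153 and 263 in one case and 71.7, 78.8 and 159 in the other. With GANT61 these probes were 2.07-fold and 2.22-fold above DMSO and the brightest one was at -0.26, so the probes of MRE11 disagree. NBN, which brings ATM to the break, read 342, 416 and 292 on its brightest probe and 74.2, 119 and 93.8 on another. With GANT61 these probes gave -0.23 and 0.34, so no direction is given for NBN there. RAD50, the ATPase, was not above background.

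Among the strand exchange genes XRCC3 was the lowest against DMSO of all 35 genes, with either compound, and RAD54L came next with cyclopamine. XRCC3, a recombination factor that pairs with RAD51C, read 187 with DMSO, 73.5 after cyclopamine and 67.8 after GANT61. These are 2.55-fold and 2.76-fold lower than DMSO, and both treated values lie close to the background limit. RAD54L, a translocase that helps the broken strand invade the intact one, read 441.5, 205 and 301. It was 2.15-fold lower with cyclopamine and at -0.55 with GANT61, about 1 SD between probes. BLM, a helicase that undoes recombination intermediates, read 526, 305 and 340.3, with log2 differences of -0.79 and -0.63.

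The rest of the group moved less. RAD51C read 788, 732 and 704, and its 3 probes above background ran between -0.36 and -0.09 on the log2 scale for cyclopamine and between -0.51 and -0.16 for GANT61. XRCC2, another recombination factor, read 2344, 1669.5 and 2633, lower by 0.49 on the log2 scale with cyclopamine and at 0.17 with GANT61. WRN, a helicase and exonuclease, read 507, 519 and 707.5, and its second probe, below the limit with DMSO, was at least 1.67-fold higher with GANT61.

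Of the end-joining genes, XRCC6 (Ku70) was lower on both probes with cyclopamine. It read 2910, 1611 and 2183 on the brighter probe and 1010.1, 669.9 and 873 on the other, for log2 differences of -0.85 and -0.59 with cyclopamine. XRCC5 (Ku80), which forms the ring on broken ends with XRCC6, read 605, 465 and 476, at -0.38 and -0.35. PRKDC, the DNA-dependent kinase that the ring calls in, read 448, 479.6 and 384.5, and its 3 probes above the limit on both arrays ran from -0.17 to 0.50 with cyclopamine. XRCC4 was not above background, and LIG4, the ligase of this pathway, passed the limit on the cyclopamine array alone, at 64.0.

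Of the checkpoint kinases, ATM alone passed 2-fold, with cyclopamine. ATM, the kinase that answers broken DNA, read 321 with DMSO, 777 with cyclopamine and 468 with GANT61. It was 2.42-fold higher with cyclopamine, and its other probe above background, at 236, 488 and 367, was 2.07-fold higher. With GANT61 the probes were at 0.54 and 0.64 on the log2 scale, and both read lower with GANT61 than with cyclopamine, by 0.73 and 0.41. CHEK1, the kinase that ATR switches on, read 652, 424 and 439.9, lower by 0.62 and 0.57. ATRIP, the partner of ATR, read 259, 164 and 181.5, with log2 differences of -0.66 and -0.51 and of -0.42 and -0.20 on its other probe. ATR was not above background, and CHEK2, the kinase below ATM, read 347, 367 and 406, and on its other probe above background 289, 432 and 329.

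**Figure D3:**
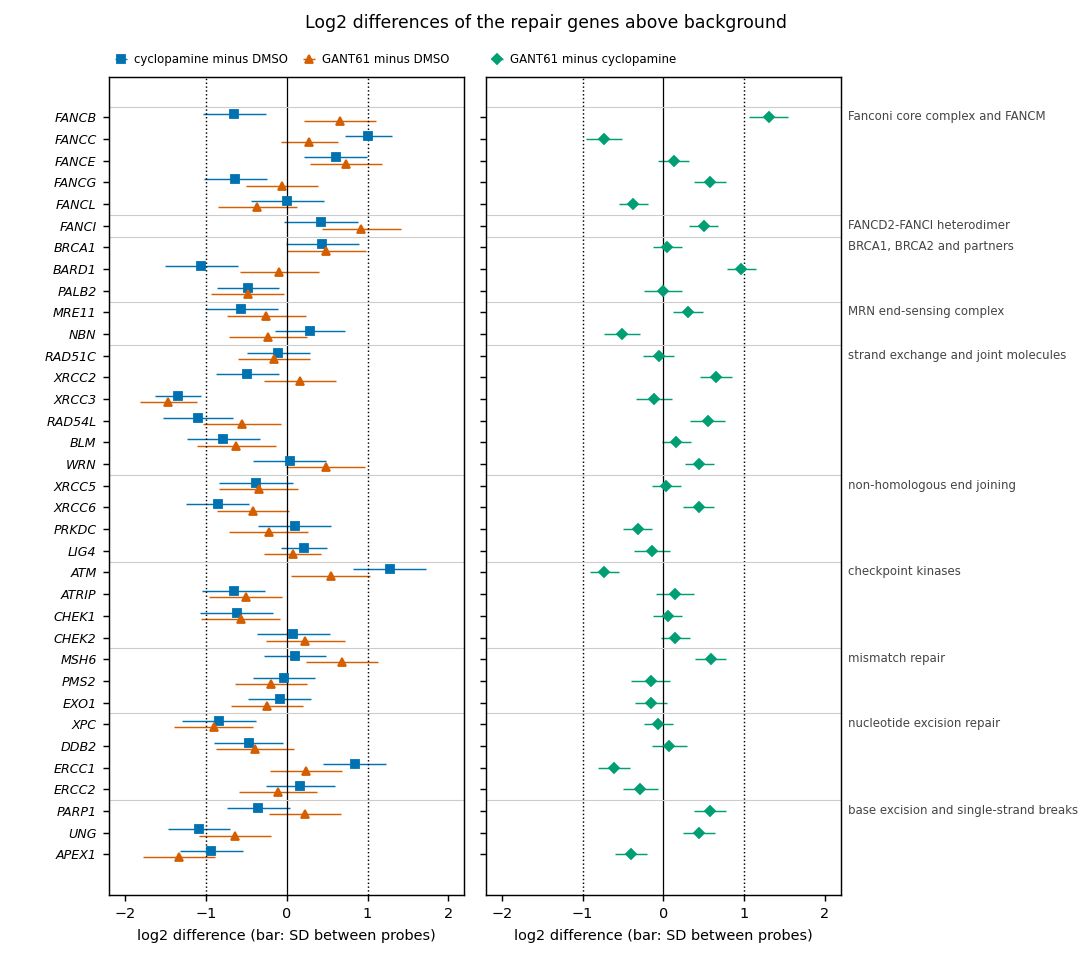
Log2 difference of each repair gene above background, brightest probe, with the SD between probes as the bar; left, each compound minus DMSO, right, GANT61 minus cyclopamine; dotted lines mark 2-fold, and FANCC and LIG4 are plotted as measured although dim with DMSO. XRCC3 at -1.35 and -1.47, APEX1 at -1.34 with GANT61 and ATM at 1.27 with cyclopamine stand farthest from 0 on the left, and FANCB at 1.30 on the right.

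Mismatch repair showed no 2-fold difference on its brightest probes. MSH6, which finds mispaired bases, read 1486, 1595 and 2395, highest with GANT61 at a log2 difference of 0.69. PMS2, an endonuclease of this pathway, read 127, 124 and 111. EXO1, the exonuclease that removes the wrong strand, read 1041, 979 and 880.0 on its brightest probe and 227, 162 and 104 on another, which gives -0.24 and -1.12 with GANT61, so the size of its difference depends on the probe.

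On the brightest probes XPC was the lowest of the nucleotide excision genes with both compounds. XPC, which recognizes bulky lesions, read 1033, 577 and 552, with log2 differences of -0.84 and -0.90. DDB2, which finds lesions made by ultraviolet light, read 252, 181 and 191, at -0.47 and -0.40. ERCC1, a subunit of the nuclease that cuts beside the lesion, read 589.5, 1058 and 694 on its brightest probe and 160, 105 and 78.8 on another. These probes gave 0.84 and -0.60 with cyclopamine, so no direction is given for ERCC1 against DMSO. All 3 of its probes above background read lower with GANT61 than with cyclopamine, by 0.61, 0.51 and 0.42. ERCC2, a helicase of the TFIIH complex, read 201, 226 and 186.

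In base excision repair, UNG passed 2-fold with cyclopamine and APEX1 with GANT61, both downward. UNG, the glycosylase that removes uracil from DNA, read 3085 with DMSO, 1451 with cyclopamine and 1974 with GANT61. It was 2.13-fold lower with cyclopamine and at -0.64 on the log2 scale with GANT61, and its other 2 probes were not above background. APEX1, the nuclease that cuts at the site left behind, read 2646, 1385 and 1049 on its brightest probe and 1199.8, 682.5 and 590.4 on the other. Both probes were lower with both compounds, and with GANT61 they were 2.52-fold and 2.03-fold lower. PARP1, which senses single-strand breaks, read 4603, 3598 and 5375, at log2 differences of -0.36 and 0.22.

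Where a gene has other probes above background, they check the brightest. There are 21 such probes of 16 genes, and they had the sign of the brightest probe in 14 with cyclopamine, in 14 with GANT61 and in 16 between the compounds. The gap from the brightest probe had a median of 0.40, 0.32 and 0.21, and the largest was 1.45, in ERCC1, with cyclopamine. Of the 8 genes that passed 2-fold, ATM and APEX1 passed it on a second probe too and FANCB did not, and no other probe above background was at hand for the other 5.

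**Figure D4:**
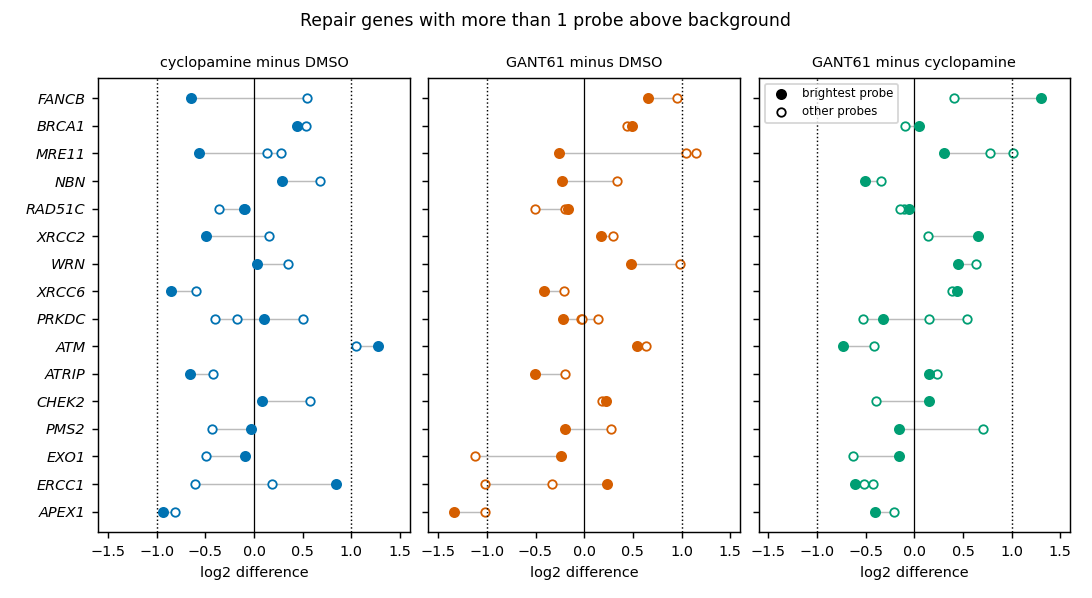
Log2 difference of every probe above background for the 16 repair genes that have more than 1, in the 3 comparisons; filled points are the brightest probe, open points the other probes, dotted lines 2-fold, and values below the limit are plotted as measured. ATM and APEX1 keep their side on both probes, and ERCC1, MRE11 and FANCB are among those that spread over both sides of 0 in at least 1 comparison.

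The compounds were given at the same dose and time and can be set against each other. For GANT61 minus cyclopamine the 35 genes had a median of 0.053, and 20 of 35 were above 0, beside 5327 of 10441 over all genes. On the brightest probe, FANCB at 1.30, BARD1 at 0.96, XRCC2 at 0.66, MSH6 at 0.59, PARP1 at 0.58, FANCG at 0.58 and RAD54L at 0.55 read higher with GANT61. The second probes of FANCB and XRCC2 were at 0.41 and 0.14. ATM and FANCC, both at -0.73, ERCC1 at -0.61 and NBN at -0.51 read lower with GANT61. No interval over cultures can be had for these differences, which are set beside an SD between probes of 0.18 to 0.24.

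In a wider list of 102 other repair genes, 82 were above background. With cyclopamine 6 were at least 2-fold lower (7.32%) and 3 higher (3.66%), with a median of -0.15, where all genes gave 6.31% and 4.70%. With GANT61 5 were lower (6.10%) and 6 higher (7.32%), with a median of -0.044, where all genes gave 9.64% and 8.16%, so the list lay near or below these shares. XAB2, a factor of transcription-coupled repair and splicing, read 675, 134 and 193, the largest fall in the list, at -2.33 and -1.80. RECQL4, a RecQ helicase, was at -1.67 with cyclopamine, H2AX, the histone marked at broken DNA, at -1.36 and LIG1, the ligase of replication, at -1.14. With GANT61, CUL4A, a scaffold of ubiquitin ligases, was at -1.61, PAXX, an end-joining factor, at -1.29 and LIG1 at -1.25.

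Among the rises of that list, MGMT, which takes alkyl groups off guanine, read 297, 865 and 397, a log2 difference of 1.54 with cyclopamine. CENPX, a partner of FANCM, rose by 1.18 and SLX4, a nuclease scaffold, by 1.01. With GANT61 CENPX was at 1.57, ERCC8, a factor of transcription-coupled repair, at 1.44, SLX4 at 1.22 and PPM1D, a phosphatase that quiets the damage response, at 1.19. Between the compounds, MGMT was at -1.12, lower with GANT61.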

How the data were processed

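Signal intensities of 47319 probes on 3 arrays of HCC-LM3 cells were used, 1 array for each of DMSO, cyclopamine and GANT61. The authors deposited these intensities on a linear scale after normalization between arrays, since their sorted values differ by at most 0.886% at any rank. Their software and background correction were not stated in the sources at hand. The medians are 47.7, 47.6 and 47.6, and no centring of genes is apparent. A second deposited table holds 6 columns whose headings match no sample, and they were not used. The DiffScore of the methods needs bead-level errors and was replaced by a 2-fold rule.

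One gene symbol was given for 30110 probes, several for 8, and 17201 are unnamed here. Background is the most common intensity, 42.5 in bins of 1, and 1.5 times it is the limit. A gene is its probe with the highest mean log2 intensity. A difference against a value below the limit is given as at least N-fold. The SD between probes came from the median absolute deviation of second-probe gaps, in 5 brightness classes. All 44 genes are named, and of the wider list the 4 largest falls and rises against DMSO among those past 2-fold. The genes and lists were chosen with earlier results of these data known.

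Alternatives were normexp with an offset of 50 and quantile normalization, background subtraction, the mean of all probes, other limits and other folds. Others subtracted, in each comparison, the median difference of the reference genes or of all genes. The steps were tested on simulated data. The changes put in were larger than 2-fold and only in genes well above the limit. The test thus does not bear on differences near 2-fold or on genes near the limit. Python 3.11.15, numpy 2.4.6, pandas 2.3.3, matplotlib 3.10.9, R 4.3.3 and limma 3.58.1 were used. The number of arrays limits the precision.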

Additional observations from a re-analysis of the deposited data

Results flagged for a closer look

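FANCB read in opposite directions with the 2 compounds, at -0.65 with cyclopamine and 0.66 with GANT61, a gap of 1.30 on the log2 scale. The difference was not tested, since each condition has 1 array and both values share the DMSO array. The second probe of FANCB was higher with both compounds, at 0.55 and 0.95, and so does not show it.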

How the results depend on the processing

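Of the counts and medians of the 35 genes, 72 values under the alternatives stayed near the reported ones, 28 moved and 2 changed sign. No gene changed sign in the comparison in which it passed 2-fold. Subtracting the median difference of the reference genes in each comparison had the widest reach, with 70 single-gene values moved and 35 near the reported ones. The medians subtracted against DMSO, -0.54 and -0.73, are smaller in size than a 2-fold difference, so under it those signs were fixed in advance. With GANT61, where they had not passed 2-fold, RAD54L went from -0.55 to 0.18, UNG from -0.64 to 0.09 and BARD1 from -0.09 to 0.64. Against DMSO 0 of 35 genes were then lower with either compound, where 1.69% and 2.09% of all genes were. Higher were 4 with cyclopamine and 8 with GANT61, where 21.5% and 35.9% of all genes were. The medians became 0.18 and 0.54 (wider list 0.39 and 0.69), beside medians of 0.57 and 0.75 over all genes. Between the compounds this subtraction gave 2 higher genes, where 2.95% of all genes were, and a median of 0.12. With cyclopamine 1 gene was higher, in place of 2, under normexp, the mean of all probes, a limit passed on all 3 arrays, subtraction of the median of all genes, and dim values set to the limit, an alternative added after seeing the data. Of all genes, 3.33% to 5.15% were higher under these settings. The gene that leaves the count is ATM under the mean of all probes and FANCC under the others. That mean, which takes in dim probes, gave 0.79 for ATM and -0.49 for UNG with cyclopamine. Background subtraction gave 1 lower and 2 higher genes between the compounds, where 5.46% and 4.06% of all genes were. The mean of all probes gave a median of -0.15 with cyclopamine, beside 0.023 for all genes. It gave 0 higher genes between the compounds, where 1.80% of all genes were. Without a filter on dim probes the medians were -0.088 and -0.095, beside 0.0070 and 0.0020 for all genes. A lower background limit gave -0.23 with cyclopamine, beside 0.026 for all genes. At 1.5-fold, 12 of the 35 genes were lower and 4 higher with cyclopamine, where 16.6% and 15.7% of all genes were. With cyclopamine the share of lower genes was thus above that of all genes at this fold, and the share of higher genes was below it. With GANT61 5 were lower and 4 higher, where 20.8% and 21.0% of all genes were, so both shares were below those of all genes. None of these counts is read as a result about the repair genes as a set. Between the compounds 3 were lower and 4 higher, where 11% and 10.3% of all genes were. At 3-fold, 0 of the 35 genes were lower with either compound, where 155 and 295 of all 10441 genes were. Higher were 0 with cyclopamine and 0 between the compounds, where 59 and 54 of all 10441 genes were. So few of all genes passed 3-fold that a count of 0 among 35 does not set the repair genes apart. No paired analysis was possible because each condition has 1 array. Differences under the SD between probes, and those of genes near the background limit, cannot be resolved here.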

Other observations

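TOPBP1, which switches on ATR, was chosen after its values were seen. It read 865 with DMSO, 812 with cyclopamine and 1701 with GANT61, at 1.07 on the log2 scale between the compounds. RIF1, which protects broken ends, read 118.0, 165.6 and 250.7 and was likewise chosen after its values were seen.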
